A study of Mus musculus with 4 samples.

Results

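Fc receptors bind the constant part of antibodies and turn antibody on a surface or in an immune complex into a signal. The group described here holds 9 of the 23275 entries of the deposited table, chosen by gene name: Faim3, Fcer2a, Fcgr1, Fcgr3, Fcgr4, Fcer1g, Fcrla, Fcrl1 and Fcrl5. Activating IgG receptors on myeloid and natural killer (NK) cells signal through a shared partner chain, the product of Fcer1g, whose tyrosine motif (ITAM) is phosphorylated by Src family kinases and then recruits the kinase Syk. The B lineage carries a different set, namely the IgM receptor encoded by Faim3, the low-affinity IgE receptor CD23 encoded by Fcer2a, and several Fc receptor-like proteins that tune signalling by the B-cell receptor. Not every member is an activating receptor in the strict sense: CD23 is a C-type lectin without an ITAM, and the Fcrla protein stays inside the cell.

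The libraries hold polyadenylated RNA of B220+CD43+ cells, the surface phenotype of early B-lineage cells, sorted from bone marrow of C57BL/6 mice at 8 weeks of age. The 2 Hdac3-deleted libraries came from Hdac3F/-Mb1cre+/- mice, with 1 conditional and 1 null Hdac3 allele, and the 2 wild-type libraries from Hdac3+/+Mb1cre+/- mice. Each library pooled cells of 2 mice. Mb1-cre is a recombinase driven from the Cd79a locus and active from the earliest B-lineage stages, and both genotypes carried it, so every comparison below is made in its presence. In the Hdac3-deleted animals, sorted cells outside the B lineage would keep the conditional allele beside the null allele. Such cells would therefore also differ from wild-type cells in Hdac3 genotype.

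Levels are the authors' FPKM (sequenced fragments per kilobase, scaled to library size), 1 value per genotype that combines its 2 libraries, so no spread between libraries can be shown. Because FPKM is per length, levels of different genes are set side by side below. Such comparisons are approximate, since the gene models were not given and some genes share sequence or a locus. A gene is called changed where the authors' q-value, their p-value adjusted over all 12683 entries they tested, was under 0.05. The standard error (SE) beside a log2 fold change is the one implied by the authors' test statistic. Whether separate animals or only separate libraries vary by this amount cannot be told from these values. Hdac3 itself was 22.0 FPKM in Hdac3-deleted cells, against 46.8 FPKM in wild-type cells, or 47.1% of the wild-type level (q = 0.0016 in the authors' deposited table). The remaining signal covers the whole gene and all sorted cells. How much of the decrease came from the null allele, and how much from deletion of the conditional allele, cannot be told from this value.

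To set the members' values beside their genomic context, the 100 bases just upstream of the annotated start are shown for 6 of them (RefSeq, GRCm38.p6, the same build as mm10, each 5′ to 3′ on the gene's own strand). They were picked to show members that fell beside members that were not called. Capitals mark GAGGAA or its reverse complement TTCCTC, a purine-rich hexamer containing the GGAA core that ETS-family factors bind.
Faim3, chr1:130865677-130865776, plus strand: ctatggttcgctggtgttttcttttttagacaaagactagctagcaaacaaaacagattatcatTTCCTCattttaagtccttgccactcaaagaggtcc
Fcgr4, chr1:171018826-171018925, plus strand: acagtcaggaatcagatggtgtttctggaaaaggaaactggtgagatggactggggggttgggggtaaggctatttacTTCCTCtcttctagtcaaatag
Fcrla, chr1:170927584-170927683, minus strand: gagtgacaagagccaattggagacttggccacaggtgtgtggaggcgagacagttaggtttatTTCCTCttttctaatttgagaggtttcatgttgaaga
Fcgr3, chr1:171059404-171059503, minus strand: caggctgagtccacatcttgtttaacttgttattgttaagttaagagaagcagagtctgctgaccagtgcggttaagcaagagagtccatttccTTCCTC
Fcer2a, chr8:3694175-3694274, minus strand: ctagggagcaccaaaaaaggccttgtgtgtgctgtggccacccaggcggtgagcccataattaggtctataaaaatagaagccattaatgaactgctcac
Fcer1g, chr1:171234350-171234449, minus strand: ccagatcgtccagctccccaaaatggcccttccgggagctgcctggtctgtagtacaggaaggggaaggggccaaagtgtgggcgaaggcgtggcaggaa

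Hdac3-deleted cells had less RNA from the IgM and IgE receptors of B cells, from all 3 Fc receptor-like members and from the IgG receptor Fcgr4. The decreases ran from 1.87-fold for Fcrla to 9.20-fold for Fcrl5. The IgG receptor Fcgr3 and the signalling chain Fcer1g did not pass the test, and Fcgr1 was near the bottom of the range and was not tested. Of the 9 members, 8 passed the authors' filter for testing, 6 fell and 0 rose. Over all tested entries, 4.14% were called lower, 2.81% higher and 6.95% in either direction. The members were chosen with earlier results of these data known, so this contrast describes them and is not an independent test. At an unadjusted p under 0.05 in the authors' Cuffdiff test the members also stood at 6 lower and 0 higher, beside 8.95% lower and 8.16% higher over all tested entries. With a normal p from the test statistic, adjusted by Benjamini-Hochberg over all entries, 4 members were lower and 0 higher, beside 2.65% lower and 1.08% higher over all entries. The median log2 fold change was -1.56 over the 8 tested members and -1.24 with Fcgr1 added, beside 0.03 over all tested entries. Fcrl5 may have been tested only because of its wild-type level, since its level in Hdac3-deleted cells lies below both levels of the untested Fcgr1.

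**Figure D1:**
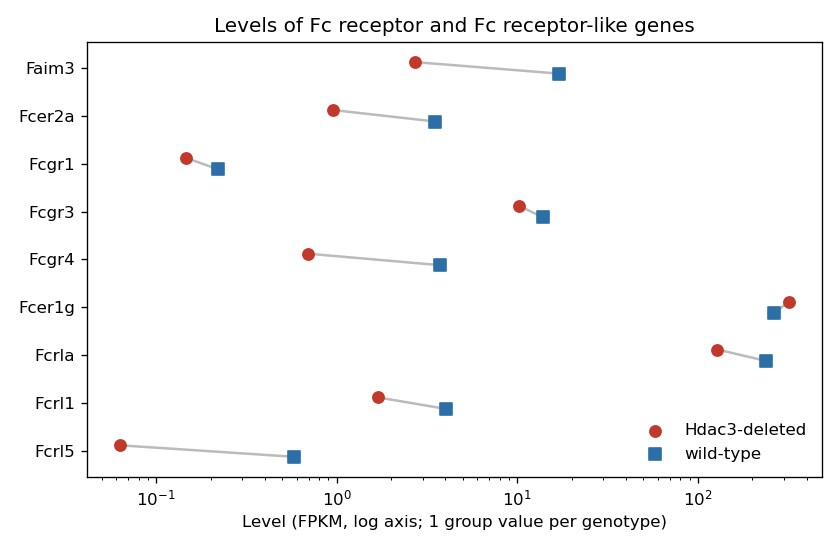
Level of each member (FPKM, log axis) in Hdac3-deleted cells (red circles, 1 group value) and wild-type cells (blue squares, 1 group value). The red circle lies left of the blue square for 8 genes, and Fcer1g, at 318 FPKM in Hdac3-deleted and 266 FPKM in wild-type cells, is the exception.

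Faim3, on chromosome 1 from 130865777 to 130880790, encodes an IgM-binding receptor found on B cells in the mouse. It was 2.73 FPKM in Hdac3-deleted cells and 17.1 FPKM in wild-type cells. The level in Hdac3-deleted cells was 16.0% of the wild-type level, a 6.27-fold decrease (log2 fold change -2.65, SE 0.38, q = 0.0016 in the authors' deposited table). Only 66 of the 12683 tested entries had a more negative fold change. In Hdac3-deleted cells Faim3 exceeded 20.8% of tested entries, and in wild-type cells 58.1%.

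Fcer2a, on chromosome 8 from 3681737 to 3694174, encodes CD23, the low-affinity IgE receptor that appears as B cells mature. It was 0.952 FPKM in Hdac3-deleted cells and 3.52 FPKM in wild-type cells. The decrease was 3.70-fold (log2 fold change -1.89, SE 0.45, q = 0.0016 in the authors' deposited table). Adding 1 FPKM to both values brought the log2 fold change to -1.21. In wild-type cells the IgE receptor thus stood at roughly the level of Fcgr4 and Fcrl1, well under Faim3.

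Surface genes of follicular and mature B cells, to which Faim3 and Fcer2a also belong by expression, moved in both directions in the same samples. Of 16 such genes other than the members, 5 fell and 2 rose, while their median log2 fold change was -0.05. The share called lower was 31.25%, beside 4.14% lower and 2.81% higher over all tested entries. The complement receptor gene Cr2 fell to 0.106 FPKM in Hdac3-deleted cells, against 0.546 FPKM in wild-type cells (log2 fold change -2.37). Ms4a1, encoding CD20, fell to 11.3 FPKM in Hdac3-deleted cells, against 28.3 FPKM in wild-type cells, though its entry shares a locus with another. Cd83, an activation marker, had a log2 fold change of -1.63. In the other direction, the follicle-homing receptor gene Cxcr5 rose to 28.6 FPKM in Hdac3-deleted cells, against 5.37 FPKM in wild-type cells. The BAFF receptor gene Tnfrsf13c, at 29.6 FPKM in Hdac3-deleted cells and 27.0 FPKM in wild-type cells, was not called. A lower level of a gene in bulk RNA cannot be told apart from fewer cells that express it.

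Of the activating IgG receptors, Fcgr4 was the member that fell. Its product is a receptor of neutrophils, monocytes and macrophages. Fcgr4, on chromosome 1 from 171018926 to 171029761, was 0.696 FPKM in Hdac3-deleted cells and 3.76 FPKM in wild-type cells. The decrease was 5.39-fold (log2 fold change -2.43, SE 0.48, q = 0.0016 in the authors' deposited table), or -1.49 on the log2 scale with 1 FPKM added to both values.

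Fcgr3, the neighbouring gene from 171051169 to 171059403, encodes a low-affinity receptor of myeloid and NK cells. It was 10.2 FPKM in Hdac3-deleted cells and 13.9 FPKM in wild-type cells (log2 fold change -0.44, SE 0.30). The test was not passed (q = 0.31 in the authors' deposited table), and the 95% interval implied by the test statistic ran from -1.02 to 0.14. A 2-fold decrease of Fcgr3 lies just inside that interval, so the data do not show that it was unchanged. Fcgr1, the high-affinity IgG receptor gene on chromosome 3 from 96282909 to 96293969, was 0.146 FPKM in Hdac3-deleted cells and 0.221 FPKM in wild-type cells. These levels exceed 0.552% of tested entries in Hdac3-deleted cells and 0.497% in wild-type cells, and no difference was detectable at such values.

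Markers of the cells that usually carry IgG receptors were present in both genotypes and did not move as 1 block. Of 15 tested neutrophil markers, 12 were lower and 0 higher, beside 4.14% lower and 2.81% higher over all tested entries. The median of the neutrophil markers' log2 fold changes was -1.96. Their summed level was 2640 FPKM in Hdac3-deleted cells and 10650 FPKM in wild-type cells, and none was at 0. S100a8, a calcium-binding protein gene of neutrophils, was 1172 FPKM in Hdac3-deleted cells and 4815 FPKM in wild-type cells. Ltf, encoding the granule protein lactoferrin, had a log2 fold change of -2.10, and Mpo, encoding the primary granule enzyme myeloperoxidase, one of -0.98 (q = 0.0016 in the authors' deposited table). Elane and Prtn3, encoding primary granule proteases, were at -1.21 and -0.87 and did not pass the test, but their entries share 1 locus and had implied standard errors of 21.5 and 19.3, so their tests say nothing about a change.

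Of 13 tested monocyte and macrophage markers, 5 fell and 1 rose, beside 4.14% lower and 2.81% higher over all tested entries. These markers had a median log2 fold change of -0.17. Their summed level was 379 FPKM in Hdac3-deleted cells and 725 FPKM in wild-type cells, and none was at 0. Lyz2, encoding lysozyme, fell by 2.05 on the log2 scale and Csf1r, the macrophage growth factor receptor gene, by 1.52. Cd14 rose, with a log2 fold change of 2.29. Cd68 and Ccr2, the most abundant of those that did not pass the test, had log2 fold changes of 0.56 and 0.41. NK cell markers showed 1 higher and 0 lower of 10, beside the same shares over all tested entries. The NK markers summed to 867 FPKM in Hdac3-deleted cells and 780 FPKM in wild-type cells. The fold changes of Fcgr4 and Fcgr3 thus stand beside a large neutrophil decrease and little movement of NK markers, and the part of each cell type in them was not tested.

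**Figure D2:**
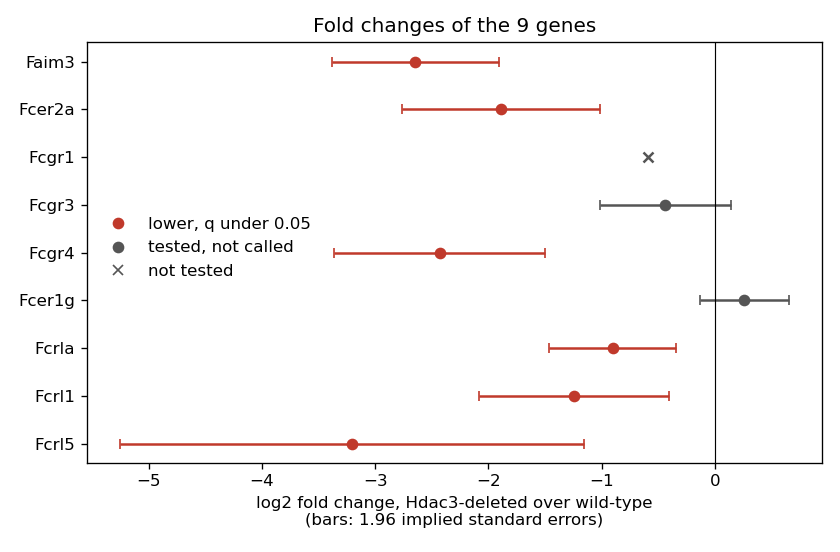
The log2 fold change of each member, Hdac3-deleted over wild-type, with bars of 1.96 implied standard errors. Of the 8 tested genes, 6 lie below 0 with bars that do not reach it, while the bars of Fcgr3 and Fcer1g cross 0. Fcgr1 is drawn as a cross without a bar because it was not tested.

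Fcer1g, the ITAM-bearing chain that Fcgr1, Fcgr3, Fcgr4, the high-affinity IgE receptor and several NK receptors need for surface expression and signalling, was the most abundant member in both genotypes. On chromosome 1 from 171229572 to 171234349, it was 318 FPKM in Hdac3-deleted cells and 266 FPKM in wild-type cells. The log2 fold change of 0.26 (SE 0.20) did not pass the test (q = 0.57 in the authors' deposited table), with an implied 95% interval from -0.13 to 0.65. Its level exceeded 98.1% of tested entries in Hdac3-deleted cells and 97.7% in wild-type cells. Fcer1g RNA was 28.8 times the summed RNA of its 3 IgG-binding partners in Hdac3-deleted cells, and 14.9 times in wild-type cells. The difference between these ratios was not tested.

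Genes used as markers of other cells that carry B220 were abundant as well. Markers of plasmacytoid dendritic cells, which carry it, summed to 4275 FPKM in Hdac3-deleted cells and 3334 FPKM in wild-type cells. All 13 had positive fold changes with a median of 0.39, and 0 were called, beside 6.95% in either direction over all tested entries. At an unadjusted p under 0.05, 3 were higher in the authors' Cuffdiff test, and 0 by a normal p from its statistic. Of the 13, Ly6d was 924 FPKM in Hdac3-deleted cells and 721 FPKM in wild-type cells. Bst2 was 670 FPKM in Hdac3-deleted cells and 578 FPKM in wild-type cells. The marker list was not limited to genes silent in B-lineage cells, so its sum does not measure dendritic cell RNA. Which of the sorted cells made these RNAs or the Fcer1g RNA was not tested.

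All 3 Fc receptor-like members fell. Fcrla, an intracellular protein of B cells that binds immunoglobulin within the secretory pathway, was the second most abundant member, at 128 FPKM in Hdac3-deleted cells and 240 FPKM in wild-type cells. The gene lies on chromosome 1 from 170917594 to 170927583. Its decrease was 1.87-fold (log2 fold change -0.90, SE 0.29, q = 0.0016 in the authors' deposited table), the smallest of the 6 called members. Even so, Fcrla stayed above 94.8% of tested entries in Hdac3-deleted cells, and above 97.4% in wild-type cells.

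Fcrl1 and Fcrl5 are neighbours on chromosome 3, from 87376387 to 87392133 and from 87435782 to 87500678. Fcrl1 encodes a B-cell surface protein with ITAM-like motifs that promotes B-cell receptor signalling. It was 1.70 FPKM in Hdac3-deleted cells and 4.02 FPKM in wild-type cells, a 2.37-fold decrease (log2 fold change -1.24, SE 0.43, q = 0.0053 in the authors' deposited table). By a normal p from the authors' test statistic its q was 0.083, the highest of its alternatives, which began at 0.0047, and there it was not called.

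Fcrl5, known in the mouse from marginal zone and B-1 cells, was 0.0632 FPKM in Hdac3-deleted cells and 0.582 FPKM in wild-type cells. The 9.20-fold decrease was the largest among the members and the least certain (log2 fold change -3.20, SE 1.05, q = 0.048 in the authors' deposited table). Adding 1 FPKM to both values brought the log2 fold change to -0.57. Over the alternatives its q ran between 0.042 and 0.057, and it missed the threshold at the upper end, by the normal p.

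Genes that define pro-B and pre-B cells did not fall with the Fc receptor-like genes. Of 14 such markers 7 rose and 0 fell, beside 2.81% higher and 4.14% lower over all tested entries. The markers' log2 fold changes had a median of 0.55. Their summed level was 4814 FPKM in Hdac3-deleted cells and 3276 FPKM in wild-type cells. The recombinase gene Rag1 was 372 FPKM in Hdac3-deleted cells and 77.8 FPKM in wild-type cells. Cd79b, a chain of the B-cell receptor complex, was 472 FPKM in Hdac3-deleted cells and 359 FPKM in wild-type cells and did not pass the test, and neither did Vpreb3, at -0.10. Fcrla RNA was 0.384 times the RNA of Cd79a, the other chain of that complex, in Hdac3-deleted cells and 0.894 times in wild-type cells. Cd79a itself had a log2 fold change of 0.32 and did not pass the test. Since Mb1-cre is driven from the Cd79a locus in both genotypes, the level of that gene is itself touched by the transgene.

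**Figure D3:**
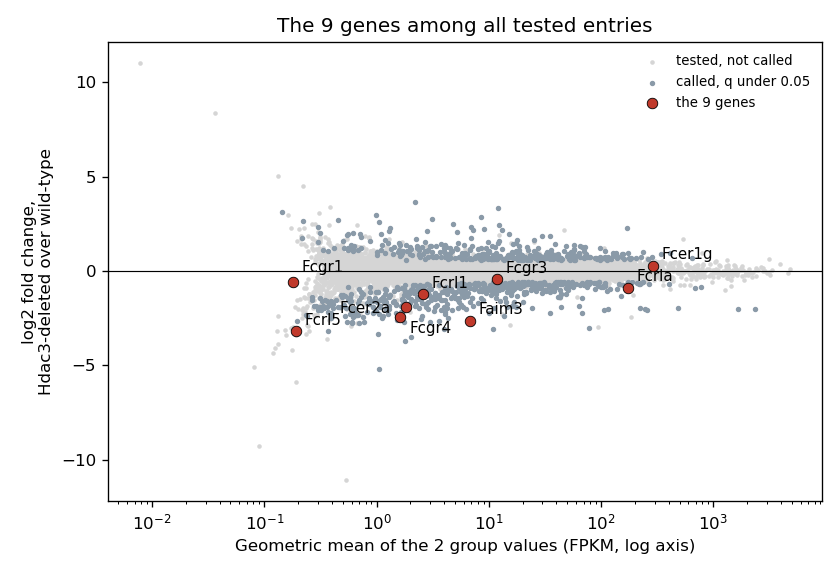
Each tested entry with a value above 0 in both genotypes (12643 entries, grey, darker where called; 40 with a 0 are left out) and the 9 members (red), by geometric mean level (FPKM, log axis) and log2 fold change, Hdac3-deleted over wild-type. Faim3 and Fcgr4 lie along the lower edge of the cloud at their level, Fcer1g above 0 at the right, and Fcrl5 and Fcgr1 at the left, where the cloud is widest.

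Ordered by level, the members ranked Fcer1g, Fcrla, Fcgr3, Faim3, Fcrl1, Fcer2a, Fcgr4, Fcgr1 and Fcrl5 in Hdac3-deleted cells. In wild-type cells the order was Fcer1g, Fcrla, Faim3, Fcgr3, Fcrl1, Fcgr4, Fcer2a, Fcrl5 and Fcgr1. Neighbours in these orders such as Fcer2a and Fcgr4 differ little, and with 1 value per genotype no difference between genes could be tested. The 9 members summed to 463 FPKM in Hdac3-deleted cells and 549 FPKM in wild-type cells. Fcer1g made up 68.7% of that sum in Hdac3-deleted cells and 48.5% in wild-type cells, while Fcrla made up 27.7% in Hdac3-deleted cells and 43.7% in wild-type cells. Without Fcer1g, the other 8 summed to 145 FPKM in Hdac3-deleted cells and 283 FPKM in wild-type cells.

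Of 14 further Fc receptor and adaptor genes, which include the T-cell receptor complex chains Cd247 and Cd3g, 10 were tested. Of these, 1 fell and 1 rose, around a median log2 fold change of 0.15, beside 4.14% lower and 2.81% higher over all tested entries. Fcgr2b, the inhibitory IgG receptor gene and the 1 such receptor usual on B cells, fell to 13.9 FPKM in Hdac3-deleted cells, against 30.0 FPKM in wild-type cells (log2 fold change -1.11, q = 0.0016 in the authors' deposited table). Fcgr3 RNA was 0.736 times that of Fcgr2b in Hdac3-deleted cells and 0.463 times in wild-type cells. The longest annotated Fcgr3 coding transcript shares 12.8% of its 50-base stretches with Fcgr2b, so reads of that length from those stretches cannot be assigned to 1 of the pair. The read length is not known here. No stretch of this length was shared with another gene by Faim3, Fcgr1, Fcgr4, Fcer1g, Fcrla, Fcrl1 or Fcrl5, and for Fcer2a the share was 1.78%.

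Fcrl6, a further Fc receptor-like gene, rose to 9.99 FPKM in Hdac3-deleted cells, against 5.87 FPKM in wild-type cells (log2 fold change 0.77, q = 0.023 in the authors' deposited table). It thus went the opposite way to Fcrla, Fcrl1 and Fcrl5, although the difference between them was not tested. The adaptor genes Tyrobp and Hcst, whose products also pair with activating receptors, had log2 fold changes of 0.24 and 0.16 and did not pass the test. Tyrobp was 1400 FPKM in Hdac3-deleted cells and 1185 FPKM in wild-type cells, the highest level in the family.

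The high-affinity IgE receptor of basophils and mast cells uses the Fcer1g chain with the products of Fcer1a and Ms4a2, and neither of these passed the test. Fcer1a was 0.238 FPKM in Hdac3-deleted cells and 0.944 FPKM in wild-type cells (log2 fold change -1.99, q = 0.20 in the authors' deposited table). Ms4a2 was 0.135 FPKM in Hdac3-deleted cells and 0.650 FPKM in wild-type cells (log2 fold change -2.27, q = 0.26 in the authors' deposited table). Of 8 tested basophil and mast cell markers, these 2 included, 4 fell and 0 rose. The shares over all tested entries were 4.14% lower and 2.81% higher. The 4 that fell included the protease genes Mcpt8 and Prss34 at -2.64 and -2.29. The list summed to 6.44 FPKM in Hdac3-deleted cells and 28.0 FPKM in wild-type cells, and 1 of its genes, Il6, which was not tested, was at 0 in Hdac3-deleted cells. These are the lowest sums of the marker lists, and they lie far under the level of Fcer1g in both genotypes.

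Downstream, few of the kinases and adaptors that Fc receptors use were called. Of 25 tested signalling genes, 1 fell and 1 rose, beside 4.14% lower and 2.81% higher over all tested entries. The signalling genes had a median log2 fold change of 0.15, with 21 positive and 4 negative fold changes. At an unadjusted p under 0.05 in the authors' Cuffdiff test, 5 were higher and 1 lower. Over all tested entries, 8.16% were higher and 8.95% lower at that threshold. Pik3cd, the catalytic subunit of a leukocyte PI3 kinase, rose to 133 FPKM in Hdac3-deleted cells, against 82.7 FPKM in wild-type cells (log2 fold change 0.68). The GTPase gene Rac2, at 368 FPKM in Hdac3-deleted cells and 311 FPKM in wild-type cells, was not called. The phosphatase gene Ptpn6 was 193 FPKM in Hdac3-deleted cells and 181 FPKM in wild-type cells, also without a call. Syk, the kinase that binds phosphorylated ITAMs, had a log2 fold change of 0.14 and was not called.

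**Figure D4:**
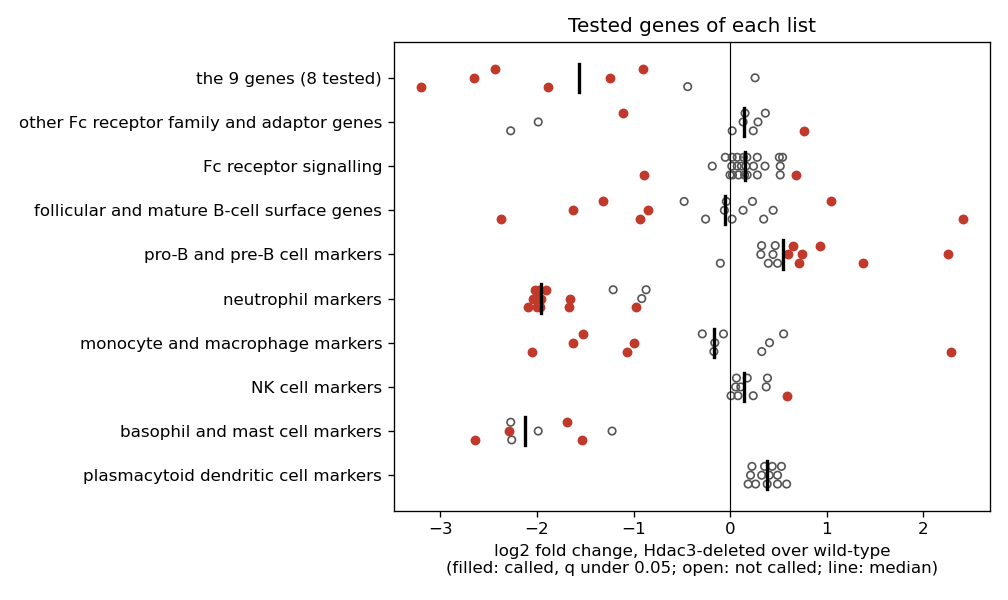
The log2 fold change, Hdac3-deleted over wild-type, of the tested genes of each list (filled, called at a q under 0.05; open, not called) with the list's median as a line. The 8 tested members reach from -3.20 to 0.26, the neutrophil list clusters near its median of -1.96, and the signalling list centres on 0.15.

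Fcrla, Fcgr4, Fcgr3 and Fcer1g lie in 1 gene cluster on chromosome 1, which runs from Fcrla over Fcgr2b, Fcgr4 and Fcgr3 to Fcer1g across 317 kb. The cluster holds 12 entries, 10 of them tested, and the 3 called lower were Fcrla, Fcgr2b and Fcgr4, which follow each other directly. Fcgr3 begins 21.4 kb beyond the end of Fcgr4 and was not called. On the outer side of Fcrla the next entry is Fcrlb, another Fc receptor-like gene. Fcrlb was 0.137 FPKM in Hdac3-deleted cells and 0.267 FPKM in wild-type cells, and was not tested. Past Fcrlb, Dusp12 and Atf6 had log2 fold changes of 0.15 and 0.11. Beyond Fcgr3 the succinate dehydrogenase gene Sdhc was at -0.43. None of Dusp12, Atf6 and Sdhc passed the test. Among the 18 tested entries other than members within 200 kb of Fcer1g, 0 were called in the authors' Cuffdiff test. Over all tested entries 6.95% were called in either direction.

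**Figure D5:**
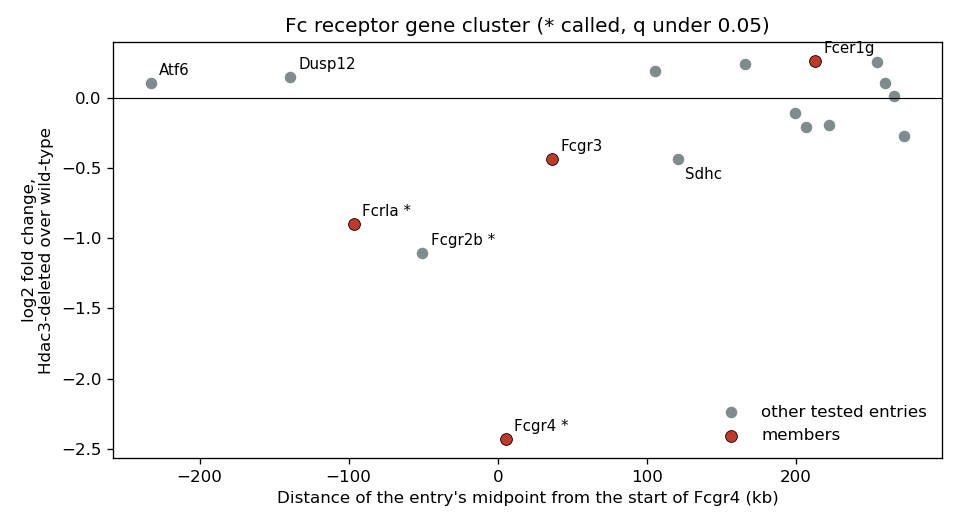
The log2 fold change, Hdac3-deleted over wild-type, of tested entries around the Fc receptor cluster of chromosome 1, by distance of their midpoint from the start of Fcgr4 (kb). The 3 adjacent entries Fcrla, Fcgr2b and Fcgr4 are marked as called (*), and the entries on both sides, Fcgr3 and Fcer1g included, are not.

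For the other members, called neighbours that are not themselves members were found only around Fcer2a. None of the 3 tested entries within 200 kb of Faim3 was called, and the receptor genes next to it, Pigr and Fcamr, were 0.0364 and 0.0837 FPKM in Hdac3-deleted cells and 0.107 and 0.248 FPKM in wild-type cells, untested. Around Fcer2a, 15 entries were tested and 3 were called, beside 6.95% called in either direction over all tested entries. Of these 1810033B17Rik fell to 4.45 FPKM in Hdac3-deleted cells, against 14.3 FPKM in wild-type cells. The lectin genes Cd209a and Cd209d rose, to 70.1 and 149 FPKM in Hdac3-deleted cells, against 42.0 and 65.0 FPKM in wild-type cells. Trappc5, the entry nearest to Fcer2a, had a log2 fold change of 0.35 and was not called. Fcrl1 and Fcrl5 lie 43.6 kb apart. Beyond Fcrl5, Etv3 was marked as failed in the authors' deposited table, with 16.0 FPKM in Hdac3-deleted cells and 0 in wild-type cells, so no fold was taken from it.

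The hexamer in capitals in the sequences above was found within 100 bases upstream of the start in 6 of the 9 members. It was chosen after the sequences had been read. Both strands were searched. The hexamer itself contains GGAA, so each match holds that core by definition. Of all 32851 RefSeq upstream windows of that length, 9.82% hold it. Within 250 bases it was again found in 6 of the 9 members, beside 23.3% of all windows. It lay 36 to 31 bases upstream in Faim3, 22 to 17 in Fcgr4, 37 to 32 in Fcrla, 55 to 50 in Fcgr1 and 6 to 1 in Fcgr3, and Fcrl1 held 2 matches. Fcer2a, Fcer1g and Fcrl5 held none in this window. The match stood in 4 of the 6 members that fell, in Fcgr3, which was not called, and in Fcgr1, which was not tested. Only Fcgr3 and Fcer1g were tested and not called, the first with and the second without the match. With so few genes it cannot be told whether the match sorts with the calls. Fcgr1 and Fcrla, on different chromosomes, share the 15-base run TTCCTCTTTTCTAAT within 250 bases of their starts. It was the longest run found when every pair of members was compared, so it was picked for its length. For this comparison each sequence was read only on its gene's own strand. Of the 32851 windows of 250 bases, 3 hold the run on either strand, those of Fcgr1 and Fcrla included. CANNTG, the E-box, stood within 100 bases in 2 of the 9 members, beside 34.4% of all such windows, and within 250 bases in 6 of the 9, beside 66.2%.

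The tested entries most like Faim3 over the 2 group values, by distance in log2 FPKM, were Chi3l1, Slfn4 and Scd1. They were 3.11, 3.77 and 3.03 FPKM in Hdac3-deleted cells and 12.8, 13.8 and 11.6 FPKM in wild-type cells, each less steep than Faim3. For Fcer2a the nearest were Siglece, Clec4a2 and Khdrbs3, with log2 fold changes of -1.85, -1.95 and -1.75. With only 2 values per gene, such likeness says no more than that level and fold change were close.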

How the data were processed

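RNA from 4 libraries, 2 per genotype, was analysed, with groups taken from the labelled genotype. Reads were handled on mm10 with Trimmomatic 0.32, TopHat2 2.0.11 and Cuffdiff 2.1.1, per the submitters' processing notes. Tool options, gene models and library scaling were not given in the sources used here. For every gene the authors deposited 1 FPKM per genotype, per the file headers, with the authors' p-value and q-value, and a test statistic, a score used here only for implied standard errors and 1 alternative. Library depth is unknown. The smallest deposited p-value, 5e-05, is shared by 396 tested entries, so genes at q = 0.0016 cannot be ranked by it.

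Fold changes were recomputed from the FPKM values as Hdac3-deleted over wild-type. The standard error is the log2 fold change over the test statistic, and 95% intervals span 1.96 of it. The members and all gene lists were chosen with earlier results of these data known. Named genes were all members, up to 4 called genes per list by q and then fold, up to 2 not called by level, called or nearest entries within 200 kb, and the 3 entries nearest Faim3 and Fcer2a. Syk, Cd79a, Mpo, Cd247, Cd3g, Fcer1a, Ms4a2, Il6, Pigr, Fcamr, Fcrlb, Sdhc, Atf6 and Etv3 were named in addition, after their values were seen. Some genes that these rules select are not reported here. Ly6g was not analysed here, and Adgre1 was matched as Emr1. All 9 members matched a RefSeq upstream sequence, Faim3 through its present symbol Fcmr, with a start equal to the edge of the deposited gene. Positions are deposited ones counted from 1. No member shared its locus with another entry, or exon bases with another GENCODE M21 gene. The adjustment of p-values was tested on simulated data. Tools were matplotlib 3.10.9, scipy 1.17.1, numpy 2.4.6 and pandas 2.3.3 under Python 3.11.15.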

Additional observations from a re-analysis of the deposited data

How the results depend on the processing

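The 7 alternatives left 4 to 6 of the members called, all lower. At a q under 0.01 Fcrl5 was not called, with a 2-fold minimum Fcrla was not, with a minimum of 1 FPKM in 1 genotype Fcrl5 was not tested, and with a normal p from the test statistic Fcrl1 and Fcrl5 were not. A pseudocount of 1 FPKM moved the median log2 fold change of the tested members from -1.56 to -0.90. Centring on the median entry, a shift of 0.02, turned no direction. Among further Fc receptor and adaptor genes, 1 in place of 2 was called at a q under 0.01, with the 2-fold minimum and with the normal p, always Fcgr2b. Among signalling genes the count of 2 became 1 at a q under 0.01, 0 with the 2-fold minimum and 0 with the normal p (Benjamini-Hochberg over all entries; 2 at an unadjusted normal p under 0.05). Over all entries, 881 calls became 534 at a q under 0.01, 426 with the 2-fold minimum and 471 with the normal p. No paired analysis was possible because the table holds 1 value per genotype, and for the same reason leaving out a library was not run. What limits the low members is their level: Fcrl5, Fcgr1, Fcgr4 and Fcer2a were under 1 FPKM in Hdac3-deleted cells, and how many fragments stood behind them is unknown.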
